A study of Mus musculus with 16 samples.

Results

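The genes described here were 10 members of the CCN family and of the YAP pathway in the colon of mouse pups at weaning: Cyr61, Ctgf, Nov, Wisp1, Wisp2, Yap1, Amotl1, Amotl2, Lats2 and Ankrd1. They were chosen by their gene name on the array, and all 10 were present among the 36711 genes measured, on 14 of the 56605 probes. The study compared C-section delivery (CSD) with vaginal delivery (VD) in RjOrl:SWISS mice, an outbred stock. CSD pups were taken from the mother by hysterectomy late in gestation and fostered by females that had just delivered vaginally, and VD pups were born vaginally and exchanged between mothers, so that all 16 pups were raised by a foster mother. Total colon RNA of 8 CSD and 8 VD pups was hybridised to 1-colour arrays, 1 array for each pup. The labels give 2 mothers per delivery mode: mothers 3 and 4 for CSD (2 females and 2 males each), mother 5 for VD (2 females and 3 males) and mother 6 for VD (3 males). Delivery mode therefore varied only between litters, and with 2 litters per mode its effect cannot be fully told apart from that of the litters.

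CCN proteins are small secreted proteins of the extracellular matrix that bind integrins and other surface receptors. Yap1 encodes YAP, a transcriptional co-activator that enters the nucleus when the Hippo kinases do not phosphorylate it and that acts through the TEAD DNA-binding proteins. Cyr61, Ctgf, Ankrd1 and Amotl2 are widely used as readouts of YAP, and in the gut YAP is known for its role in the repair of the epithelium. Cyr61 is also an immediate early gene, transcribed within a short time of a growth factor or mechanical stimulus. These roles are background and were not measured here.

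CSD pups had less Cyr61 and less Amotl2 RNA than VD pups, and the other 8 genes were not called. Values are log2 intensities after background correction and quantile normalization, and a gene was called at a Benjamini-Hochberg adjusted p under 0.05 over all 36711 genes in a limma fit that adjusted for sex and took litters as random. In that fit 2 of the 10 members were called, beside 1.25% of all genes. On simulated data with 2 litters per mode this fit made more false calls than its nominal level, so the adjusted p-values of Cyr61 and Amotl2 may be too small. Both were lower in CSD, where 0.548% of all genes were called lower and 0.706% higher. The members were chosen with this comparison in view, so their CSD and VD values describe them and are not independent evidence. In whole-tissue RNA, fewer cells of a type and less RNA per cell cannot be told apart.

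The promoters of these 2 genes and of Ankrd1 are printed because they belong to the YAP readouts among the members and hold the TEAD motif. RefSeq promoter sequences of GRCm38.p6 were matched for 6 of the 10 members (Cyr61, Ankrd1, Amotl1, Amotl2, Lats2 and Yap1). The 250 bases before each start site are given 5′ to 3′ in the direction of transcription, with every GGAATG, or its reverse complement CATTCC, in capitals.
Cyr61 promoter: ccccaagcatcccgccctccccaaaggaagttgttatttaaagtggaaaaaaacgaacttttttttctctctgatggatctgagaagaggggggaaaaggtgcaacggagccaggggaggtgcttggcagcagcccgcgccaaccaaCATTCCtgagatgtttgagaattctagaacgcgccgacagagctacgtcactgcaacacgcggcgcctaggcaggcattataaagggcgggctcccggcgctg
Amotl2 promoter: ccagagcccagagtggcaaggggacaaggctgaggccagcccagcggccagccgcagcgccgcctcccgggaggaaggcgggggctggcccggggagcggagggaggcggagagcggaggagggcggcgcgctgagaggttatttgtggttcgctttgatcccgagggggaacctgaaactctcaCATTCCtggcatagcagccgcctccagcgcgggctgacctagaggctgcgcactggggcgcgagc
Ankrd1 promoter: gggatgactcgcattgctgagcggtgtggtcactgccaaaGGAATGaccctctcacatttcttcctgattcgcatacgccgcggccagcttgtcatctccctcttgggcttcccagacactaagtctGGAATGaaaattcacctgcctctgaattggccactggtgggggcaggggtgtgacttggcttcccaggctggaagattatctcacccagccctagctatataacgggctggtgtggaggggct
The Cyr61 window lies at chr3:145649986-145650235 on the minus strand, the Amotl2 window at chr9:102717554-102717803 on the plus strand and the Ankrd1 window at chr19:36119845-36120094 on the minus strand. The motif began 103 bases before the start of Cyr61, 65 bases before that of Amotl2, and 210 and 123 bases before that of Ankrd1. Yap1 had 1 match, 141 bases before its start, and the windows of Amotl1 and Lats2 had 0. Of all 32851 promoter windows of this length, 12.6% held the motif on either strand. The AP-1 motif TGANTCA, which reads the same on both strands, was in 0 of the member windows and in 6.75% of all windows, and the CArG box, the site bound by SRF, was in 0 and in 1.47%. These matches describe the letters in the windows and say nothing about binding.

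Among the CCN genes, Cyr61, which encodes the matrix protein CCN1, had the largest log2 fold change. Its log2 intensity in CSD pups ran from 7.80 in pup 5 over a median of 8.17 to 8.54 in pup 8, and in VD pups from 8.30 in pup 8 over a median of 8.95 to 9.72 in pup 9. The groups overlapped through VD pup 8 alone: 7 of the 8 VD pups lay above every CSD pup, and 6 of the 8 CSD pups lay below every VD pup. CSD pups averaged 8.13 ± 0.26 (SD, n = 8) and VD pups 8.97 ± 0.40 (SD, n = 8), a fitted log2 fold change of -0.82 (SE 0.17), or 1.77-fold less in CSD, with an adjusted p of 0.0310 in limma. Litter means were 8.17 and 8.09 for mothers 3 and 4, and 9.16 and 8.66 for mothers 5 and 6. Without the litter of mother 5 the log2 fold change was -0.45, so the size of the difference depended on that litter. The gene was not called without the litter of mother 3, 4 or 5 (adjusted p of 0.0716, 0.155 and 0.331 in limma) nor with litter means as samples (adjusted p = 0.318). On the arrays of slide 1 and of slide 2 alone the log2 fold change was -0.96 and -0.68, and neither was called (adjusted p of 0.434 and 0.349). The call was lost when VD pup 4 or 5, or CSD pup 1, 3, 5, 6, 7 or 9, was left out, with log2 fold changes of -0.85 to -0.75 in those fits. The gene was measured by 1 probe, at chr3:145310187-145310246 (mm9, minus strand), which was well above background on all 16 arrays.

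**Figure D1:**
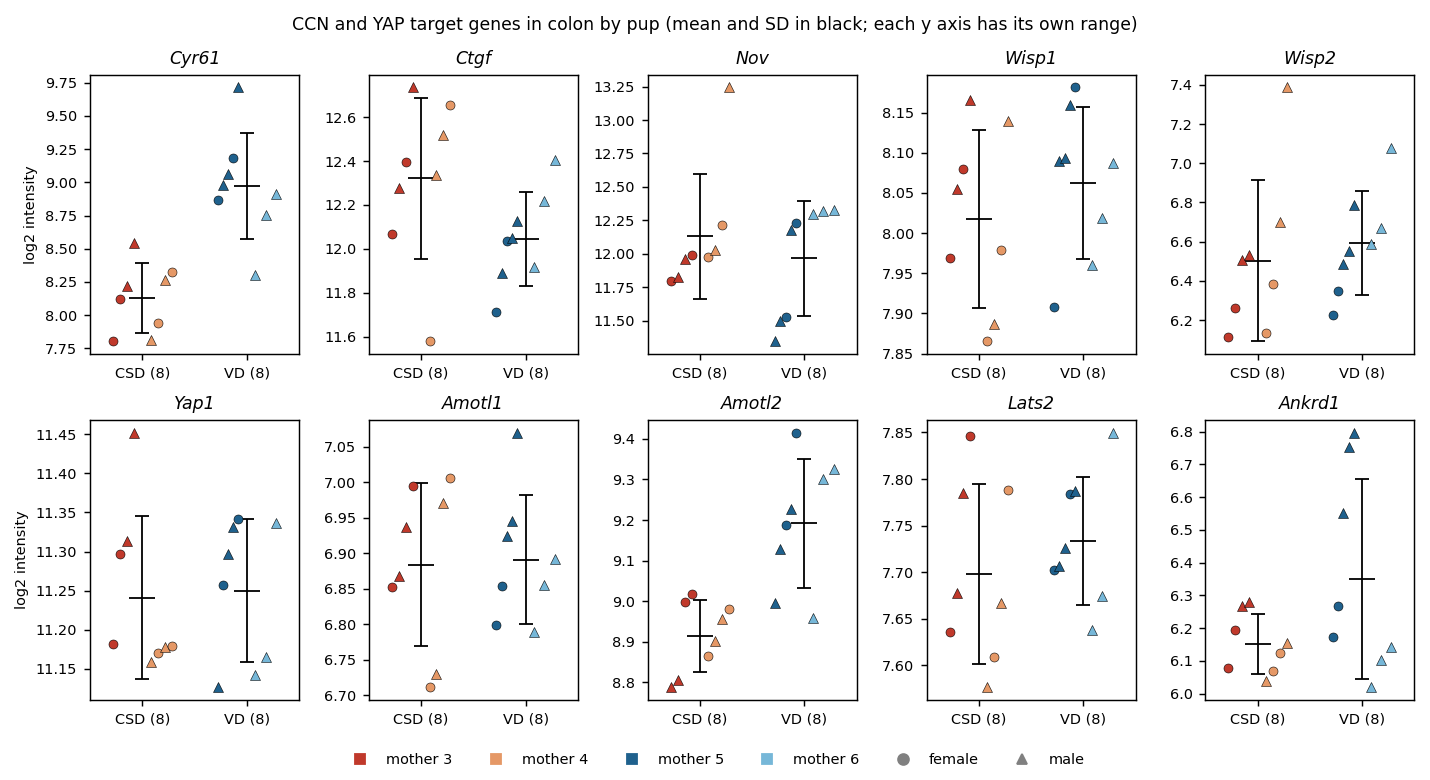
Log2 intensity of the 10 genes in each pup, by delivery mode (8 CSD and 8 VD pups), with colours for the 4 mothers, circles for females and triangles for males, and black bars for the mean and SD. In the Cyr61 panel 7 of the 8 VD pups lie above every CSD pup, and in the Wisp2 panel every triangle lies above every circle.

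Ctgf, which encodes CCN2, a matrix protein known for its part in fibrosis, had values in the opposite direction to Cyr61 and was not called. CSD pups ran from 11.58 in pup 1 over a median of 12.37 to 12.74 in pup 9, and VD pups from 11.71 in pup 5 over a median of 12.04 to 12.40 in pup 7. Pup 1 was the lowest of all 16 pups while 3 other CSD pups were above every VD pup, so the groups overlapped widely. CSD pups averaged 12.32 ± 0.37 (SD, n = 8) against 12.04 ± 0.21 (SD, n = 8) for VD pups, with a fitted log2 fold change of 0.34 (SE 0.14) and an adjusted p of 0.251 in limma. On slide 1 and slide 2 alone that estimate was 0.10 and 0.57. Its only probe was at chr10:24318281-24318340 (mm9, plus strand).

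Nov, which encodes CCN3, had a wide range within both groups. CSD pups lay between 11.80 and 13.24 with a median of 11.98, and VD pups between 11.35 and 12.33 with a median of 12.21. CSD pup 7, at 13.24, was far above the next CSD pup, at 12.22, and 3 VD pups, all of mother 5, were below every CSD pup. The log2 fold change was 0.21 (SE 0.22), an estimate no larger than its error. On slide 1 and slide 2 alone it was 0.66 and -0.25, and without CSD pup 7 it was 0.01.

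The genes Wisp1 and Wisp2, which encode CCN4 and CCN5, were not called. For Wisp1 the delivery difference was close to 0, with a log2 fold change of -0.03 (SE 0.05). Wisp1 was the mean of 2 probes, of which 1 was not well above background on any array and the other was on all 16. Wisp2 was well above background on 4 of 8 CSD and 5 of 8 VD arrays, so its fitted log2 fold change of 0.03 (SE 0.12) is no measured size. Its values ran from 6.12 to 7.39 in CSD and from 6.22 to 7.08 in VD. The group means, 6.50 in CSD and 6.59 in VD, ran against the fitted sign, and without CSD pup 6 the estimate was -0.10. Wisp3, the remaining gene of the family and not among the 10, was not well above background on any array.

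Yap1 itself differed little between the delivery modes. CSD pups ran from 11.16 over a median of 11.18 to 11.45 in pup 8, and VD pups from 11.13 over a median of 11.28 to 11.34, and the groups overlapped almost fully. The log2 fold change was -0.01 (SE 0.05), and its 2 probes, 1 in each direction, gave group differences of 0.04 and -0.06. Lats2, the kinase that phosphorylates YAP and is itself a YAP target, had a log2 fold change of -0.04 (SE 0.05) over 3 probes. RNA levels say nothing about the phosphorylation or the location of YAP.

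The angiomotin-like genes, whose proteins bind YAP at cell junctions, had unlike values, and the difference between the genes was not tested. Amotl2 ran in CSD pups from 8.79 in pup 9 over a median of 8.93 to 9.02 in pup 5, and in VD pups from 8.96 in pup 8 over a median of 9.21 to 9.41 in pup 4. VD pups 8 and 9 reached into the CSD range, 6 of the 8 VD pups lay above every CSD pup, and 5 of the 8 CSD pups lay below every VD pup. The group means, 8.91 ± 0.09 (SD, n = 8) for CSD against 9.19 ± 0.16 (SD, n = 8) for VD, gave a fitted log2 fold change of -0.31 (SE 0.06), or 1.24-fold less in CSD, with an adjusted p of 0.0248 in limma. Its litter means were 8.90 and 8.93 in CSD and 9.19 and 9.19 in VD, so the litters of a mode lay close together, and on slide 1 and slide 2 alone the log2 fold change was -0.29 and -0.33, not called on either (adjusted p of 0.516 and 0.256). The call was lost without VD pup 4 or CSD pup 9, with log2 fold changes of -0.28 and -0.30. It was also lost without the litter of mother 3, 4 or 5 (adjusted p of 0.114, 0.0932 and 0.116 in limma), with litter means as samples (adjusted p = 0.245) and in the deposited matrix (adjusted p = 0.0502). The probe was at chr9:102635025-102635084 (mm9, plus strand). Amotl1 had a log2 fold change of 0.00 (SE 0.06), with values from 6.71 to 7.01 in CSD and from 6.79 to 7.07 in VD.

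Ankrd1, an ankyrin repeat protein of the nucleus and the sarcomere, was near the detection limit. Its probe was well above background on 0 of 8 CSD arrays and on 2 of 8 VD arrays, those of pups 9 and 10 of mother 5. CSD pups ran from 6.04 over a median of 6.14 to 6.28, and VD pups from 6.02 over a median of 6.22 to 6.80. VD pups 9, 10 and 11, at 6.80, 6.75 and 6.55, were above every CSD pup, and the other 5 VD pups lay at or near the CSD range. The fitted log2 fold change was -0.17 (SE 0.11) and Ankrd1 was not called, and since most arrays of both groups were not well above background, it gives neither a fold nor a bound.

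Over the 10 genes, 6 log2 fold changes were negative and 4 positive, and their median was -0.02 against 0.00 over all genes. The median size of the log2 fold change was 0.10 in the members and 0.05 over all genes. An unadjusted p under 0.05 was found for 3 members (Cyr61, Amotl2 and Ctgf), beside 14.5% of all genes. The pups of the delivery modes were fully apart in 0 members, beside 0.493% of all genes, and the litter means were apart in 3 members (Cyr61, Ctgf and Amotl2), beside 42.0% of all genes.

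**Figure D2:**
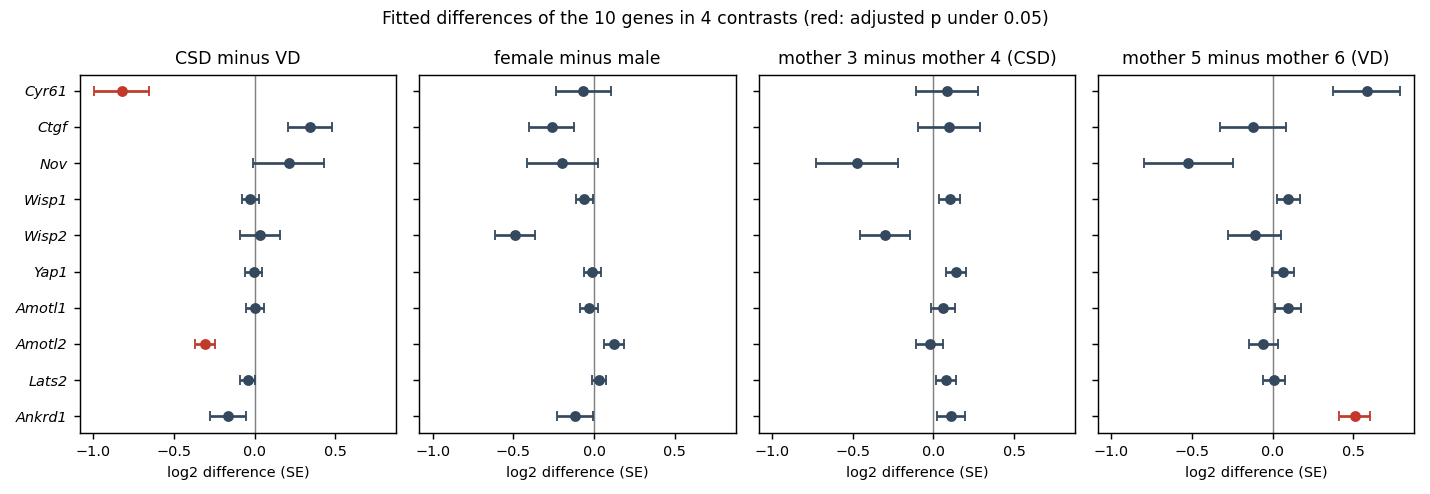
Fitted log2 differences of the 10 genes with their SE for CSD minus VD, female minus male, mother 3 minus mother 4 and mother 5 minus mother 6, with red for an adjusted p under 0.05. Cyr61 and Amotl2 are red for delivery mode, and Ankrd1 is red between the 2 VD litters. The points for Wisp2 and Ankrd1 rest in part on arrays not well above background and are not measured sizes.

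The comparison of females and males was not part of how the genes were chosen. It is not fully independent of that choice, since 4 CSD pups but only 2 VD pups were female. In limma, 0 of the 10 members were called, beside 0.0599% of all genes, and 1 had an unadjusted p under 0.05, beside 6.45%. That member was Wisp2, whose females ran from 6.12 over a median of 6.24 to 6.38 and whose males ran from 6.48 over a median of 6.63 to 7.39. The 6 females and the 10 males were fully apart, as in 0.0932% of all genes, and Wisp2 was well above background in 9 of 10 males and 0 of 6 females. Against the lowest signal above background, males were at least 1.32-fold higher, and with an adjusted p of 0.382 in limma the difference did not pass the test over all genes. Wisp2 was picked out of the 10 after its values were seen. The interaction of delivery mode and sex was called for 0 members, beside 0.00272% of all genes, with a smallest adjusted p of 0.981 and 0 unadjusted p under 0.05, beside 4.72% of all genes, and it rested on 2 VD females of 1 litter. Cyr61 was lower in CSD by a log2 difference of means of -0.98 in females and -0.75 in males, and Amotl2 by -0.34 and -0.29.

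The litters of a delivery mode were compared to see how far the members varied without any difference in delivery. Between mothers 3 and 4, 0 members were called in limma, beside 0.0872% of all genes, and 1 member, Yap1, had an unadjusted p under 0.05, beside 7.68% of all genes, with a log2 difference of 0.14 (SE 0.06) and an adjusted p of 0.629. Between mothers 5 and 6, 1 member was called, beside 0.874% of all genes. An unadjusted p under 0.05 was found for 2, Ankrd1 and Cyr61, beside 11.5% of all genes. The called member was Ankrd1, with a fitted log2 difference of 0.51 (SE 0.10) and an adjusted p of 0.0274. Its litter mean was 6.51 ± 0.28 (SD, n = 5) for mother 5 and 6.09 ± 0.06 (SD, n = 3) for mother 6, with 2 of 5 and 0 of 3 arrays well above background, so the size of the difference was not measured. Under other background corrections it was 0.87 (offset 16), 2.28 and 2.34 (processed signals) and 1.45 (deposited matrix) on the log2 scale, and with probes well above background on at least 4 arrays Ankrd1 was not tested. Cyr61 was also higher in the pups of mother 5, at 9.16 ± 0.33 (SD, n = 5) against 8.66 ± 0.32 (SD, n = 3), but its adjusted p of 0.256 missed the threshold. The fitted gap between these VD litters was 0.58 (SE 0.21) on the log2 scale. Amotl2 differed between the same litters by -0.06 (SE 0.09).

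No pair of the 10 genes passed the adjusted threshold for moving together from pup to pup. For each of the 45 pairs, deviations from the delivery mode means were correlated over the 16 pups, with permutation of the pups within delivery mode (100000 resamples, two-sided). The adjusted p was under 0.05 in 0 pairs by Pearson's r and in 0 pairs by Spearman's rho. The unadjusted p of r was under 0.05 in 8 pairs, and r was positive in 24 of the 45. The share over pairs of all genes was not worked out, so the 8 pairs are not read as an excess. The pair with the smallest p was Cyr61 and Ankrd1, with r = 0.69 (permutation p = 0.00331, adjusted p = 0.100) and rho = 0.66 (permutation p = 0.00501, adjusted p = 0.113). Without the 2 pups farthest from the Cyr61 median r was 0.58, and on deviations from litter means it was 0.50. Most of these Ankrd1 values were not well above background. Nov ran against Wisp1 (r = -0.63), Amotl1 (r = -0.63) and Ankrd1 (r = -0.57), none of them past the adjusted threshold. The YAP readouts Cyr61 and Ctgf had r = 0.21, and the called genes Cyr61 and Amotl2 had r = -0.09. Pups of a litter are not independent, and these p-values treat them as if they were.

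**Figure D3:**
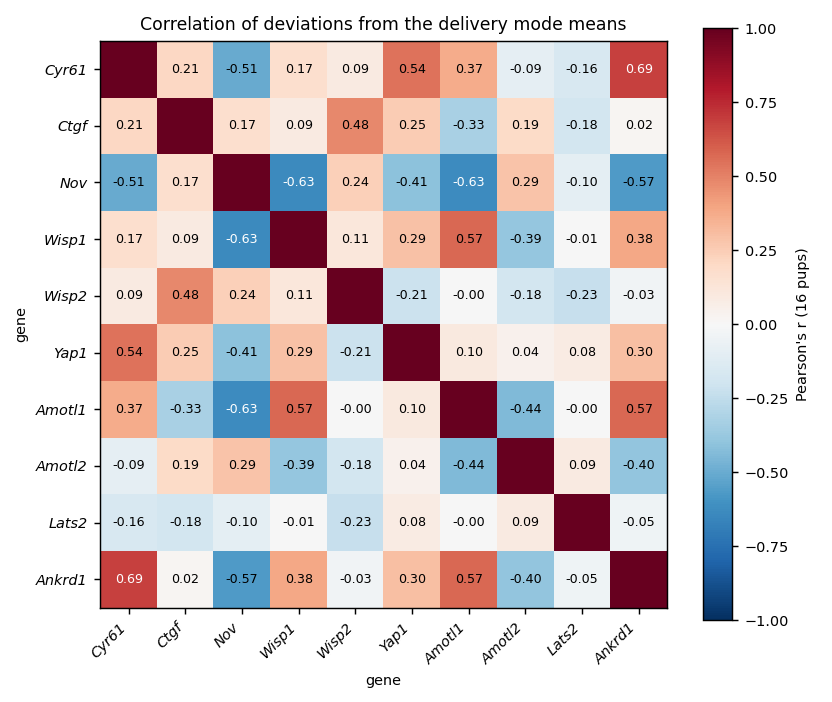
Pearson's r of the deviations from the delivery mode means for each pair of the 10 genes over 16 pups, from blue (negative) to red (positive). Cyr61 and Ankrd1 stand at 0.69, Cyr61 and Amotl2 at -0.09, and Nov is negative with Wisp1 and Amotl1.

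The genes most like Cyr61, Ctgf and Yap1 in this sense were searched among the 20547 genes well above background on every array, and the correlations are a description of 16 pups that share 4 litters. Nearest to Cyr61 was an unnamed transcribed region of chromosome 8 (r = 0.89), followed by the transcript ENSMUST00000120788 (r = 0.88), Itpk1 (r = 0.88), Fuca1 (r = 0.87) and Acot8 (r = 0.87). None of these 5 was called between the delivery modes. For Ctgf they were Tsc22d3, a glucocorticoid-induced gene (r = 0.86), Rhobtb3 (r = 0.85), Npr3, a receptor that clears natriuretic peptides (r = 0.80), A230051N06Rik (r = 0.75) and AK037956 (r = 0.75). For Yap1 they were Acap3 (r = 0.88), Klc2 (r = 0.88), Atg9a (r = 0.88), Flywch1 (r = 0.85) and Optn (r = 0.83).

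The rest of the pathway was read from lists of its genes, in the order of the signal. Of the 20 Hippo kinases and upstream regulators, 0 were called in either direction, 11 had a positive and 9 a negative log2 fold change, and the median was 0.02. The smallest p-values were those of Taok3, a kinase upstream of the Hippo kinases, at 0.15 (SE 0.06), and Stk3, which encodes the Hippo kinase MST2, at 0.18 (SE 0.07). Of the 9 partners and co-factors, 0 were called, with a median of -0.05, and Vgll3, a co-factor of TEAD proteins, stood at -0.32 (SE 0.11) and Tead4 at 0.10 (SE 0.05). Of 27 other genes reported as YAP targets, 0 were called, 12 were positive and 15 negative, and the median was -0.05. Nt5e, a surface nucleotidase, was at 0.13 (SE 0.04) and Axl, a receptor tyrosine kinase, at -0.14 (SE 0.07). Of 12 genes of the intestinal YAP response 0 were called, 6 were positive and 6 negative, and the values of Clu and Cldn4 were -0.43 (SE 0.12) and -0.34 (SE 0.16). The unadjusted p was under 0.05 for 3 of 20, 1 of 9, 1 of 27 and 1 of 12 genes of these 4 lists, beside 14.5% of all genes, so these shares lay near or below that of all genes.

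Of 12 CCN receptors 0 were called, 3 had an unadjusted p under 0.05 (beside 14.5% of all genes), and the median was -0.05. Lrp1, which binds Ctgf, stood at -0.16 (SE 0.04) and Notch1, which binds Nov, at 0.53 (SE 0.18). Of 17 genes of TGF-beta, the factor best known for inducing Ctgf, 0 were called, 3 had an unadjusted p under 0.05 (beside the same 14.5%), 12 were negative and the median was -0.10, with Tgfb1 at -0.22 (SE 0.06) and Tgfb3 at -1.18 (SE 0.45). Of 14 genes of SRF and its MRTF co-activators, 1 was called, Mkl2, an MRTF gene that was higher in CSD with a log2 fold change of 0.15 (SE 0.03) and an adjusted p of 0.0404 in limma, beside 0.706% of all genes called higher. An unadjusted p under 0.05 was found for 3 of the 14, beside 14.5% of all genes. The median of that list was -0.09 and 10 of its genes were negative.

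Immediate early genes had the lowest median among the 8 pathway lists. Of 22 genes, 18 were negative and 0 were called. An unadjusted p under 0.05 was found for 9, beside 14.5% of all genes, and 8 of these were negative. The remaining 1 was Klf6, a zinc finger factor named after its values were seen, with a positive value of 0.21 (SE 0.08). The median log2 fold change of the list was -0.18 against 0.00 over all genes. The smallest p-values were those of Nr4a1, a nuclear receptor, which averaged 10.76 ± 0.34 (SD, n = 8) in CSD pups against 11.81 ± 0.74 (SD, n = 8) in VD pups, and of Egr1, a zinc finger factor, with 9.23 ± 0.54 (SD, n = 8) and 10.27 ± 0.66 (SD, n = 8). Their log2 fold changes were -0.97 (SE 0.28) and -0.98 (SE 0.30). The mean over the 22 genes was 10.29 ± 0.14 (SD, n = 8) in CSD against 10.58 ± 0.21 (SD, n = 8) in VD, and by litter it was 10.30, 10.28, 10.68 and 10.40 for mothers 3, 4, 5 and 6.

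**Figure D4:**
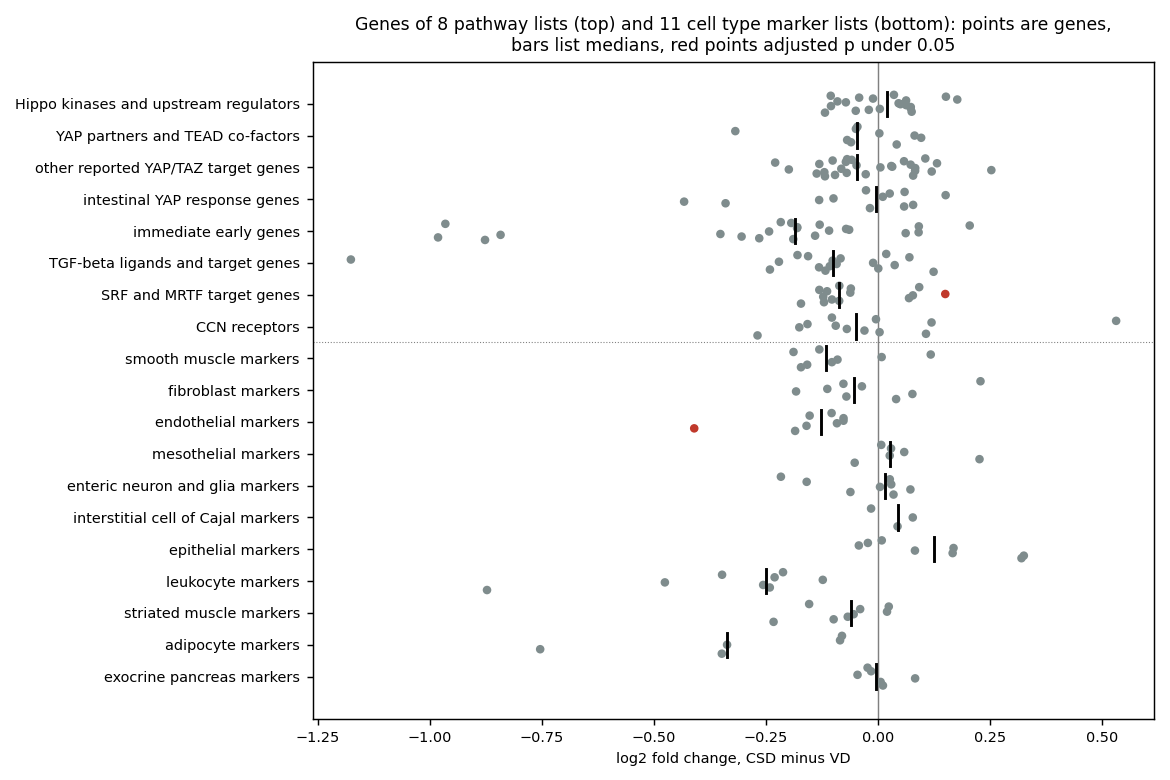
Log2 fold change (CSD minus VD) of each gene in 8 pathway lists and 11 cell type marker lists, with a black bar at the list median and red points for an adjusted p under 0.05. The bar of the immediate early genes stands at -0.18, and the only red points are Mkl2 and Egfl7.

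Cyr61 was also set against the immediate early genes from pup to pup. Of 20 relations between a member and a list mean, chosen after the data were seen, 3 had an adjusted p under 0.05. Deviations from the delivery mode means were used as above. How many of all genes follow these list means was not worked out. Whether the relations are particular to these members was therefore not tested. Cyr61 against the mean of the 22 immediate early genes had r = 0.83 (permutation p = 0.00028, adjusted p = 0.00187) and rho = 0.76 (permutation p = 0.00129, adjusted p = 0.0166). It was 0.70 without the 2 pups farthest from the Cyr61 median, 0.77 within CSD, 0.86 within VD, 0.85 on deviations from the means of mode and slide, and 0.75 on deviations from litter means. Ankrd1 against the same mean had r = 0.82 (permutation p = 9e-05, adjusted p = 0.0017) and rho = 0.76 (permutation p = 0.00186, adjusted p = 0.0166), with 0.76 without 2 pups, 0.82 within slides and 0.73 on deviations from litter means. Ankrd1 was well above background on 2 of the 16 arrays and on 0 of the 8 CSD arrays, so its values in most pups are not measured levels and nothing is read from this relation. Amotl2, by contrast, had r = -0.44 (permutation p = 0.145), and -0.79 within CSD and -0.32 within VD. Ctgf had r = -0.10 (permutation p = 0.685), and -0.14 within CSD and -0.08 within VD. The third relation was that of Cyr61 with the mean of 8 epithelial markers, with r = 0.77 (permutation p = 0.00017, adjusted p = 0.0017) and rho = 0.74 (permutation p = 0.00249, adjusted p = 0.0166), and with 0.73 without 2 pups, 0.78 within CSD, 0.83 within VD, 0.80 within slides and 0.76 on deviations from litter means. Across the delivery modes that relation did not carry over, since the epithelial mean was 15.23 ± 0.14 (SD, n = 8) in CSD against 15.11 ± 0.11 (SD, n = 8) in VD while Cyr61 was lower in CSD.

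**Figure D5:**
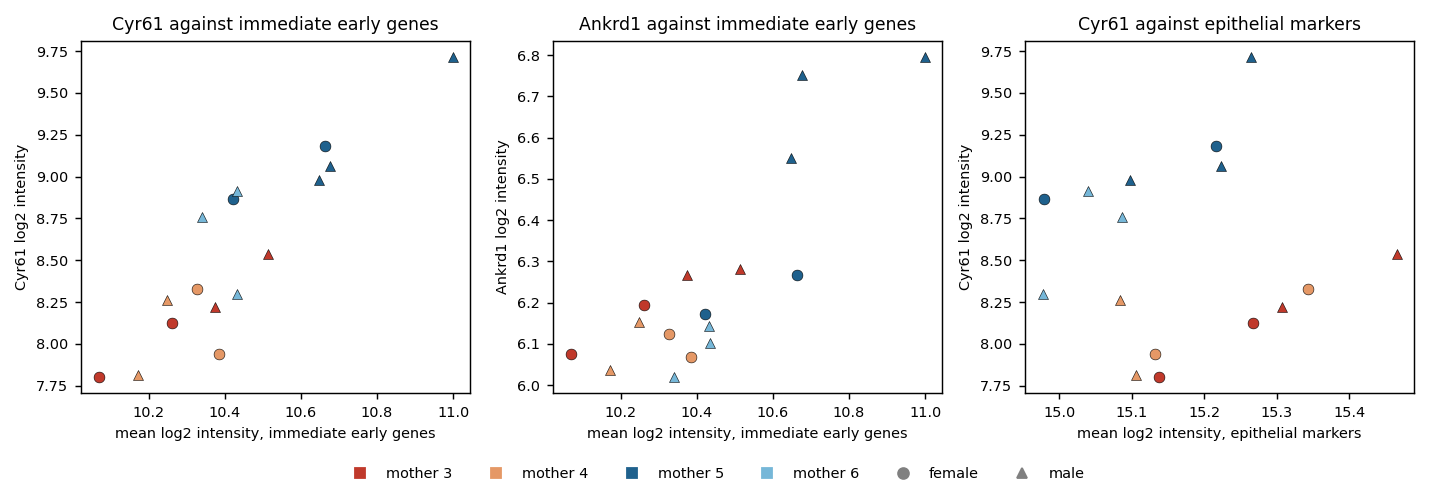
Log2 intensity of Cyr61 and of Ankrd1 against the mean log2 intensity of 22 immediate early genes, and of Cyr61 against that of 8 epithelial markers, in 16 pups (colours for mothers, circles for females, triangles for males). In the Cyr61 panels the points rise from left to right within each delivery mode, in the Ankrd1 panel 2 of the 16 values are well above background, and in the epithelial panel the CSD pups form a lower band.

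Markers of the cell types in the colon wall were read beside these genes, and their part in the Cyr61 and Amotl2 differences was not tested beyond the values given. Of the epithelial markers, 8 of 8 were well above background on every array, with Krt8 the brightest. They mark epithelium and do not test the colon label against other parts of the gut. Their summed log2 level was 19.11, 19.23 and 19.49 (lowest, median and highest) in CSD and 19.14, 19.25 and 19.43 in VD. Of these markers 6 were positive and 0 were called, and Epcam stood at 0.17 (SE 0.07) and Cdx2 at 0.33 (SE 0.18). All 8 endothelial markers had negative values and 4 had an unadjusted p under 0.05, beside 14.5% of all genes. Egfl7, a secreted endothelial protein, was called lower in CSD with a log2 fold change of -0.41 (SE 0.07) and an adjusted p of 0.0123, beside 0.548% of all genes called lower. It was also the brightest of the list, whose summed level was 12.90, 13.15 and 13.30 in CSD and 13.34, 13.45 and 13.65 in VD and follows this 1 bright gene. The mean over the 8 markers overlapped, from 9.01 to 9.28 in CSD and from 9.25 to 9.45 in VD, with 6 of 8 VD pups above every CSD pup. All 8 leukocyte markers were negative too, 4 with an unadjusted p under 0.05 (beside the same 14.5%) and 0 called, with a median of -0.25 and Cd79a at -0.48 (SE 0.14). Their summed level was 11.91, 12.19 and 12.53 in CSD and 12.33, 12.52 and 12.85 in VD, with Csf1r the brightest. Over deviations from the delivery mode means, Cyr61 had r = -0.06 with the endothelial mean (permutation p = 0.824). It was -0.18 within CSD and 0.05 within VD. With the leukocyte mean r was 0.09 (permutation p = 0.749), and -0.24 within CSD and 0.30 within VD. Amotl2 had r = 0.03 with the endothelial mean (permutation p = 0.892), and -0.15 within CSD and 0.18 within VD. With the leukocyte mean its r was -0.01 (permutation p = 0.975), and -0.26 within CSD and 0.12 within VD.

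The stromal and muscle lists, whose cells are known to express CCN genes, held 0 called genes. Of 8 smooth muscle markers 6 were negative and 1 had an unadjusted p under 0.05 (beside 14.5% of all genes), with Smtn at -0.19 (SE 0.08), Acta2 at -0.17 (SE 0.09), and a summed level, led by Tagln, of 17.61, 17.81 and 18.22 in CSD and 17.84, 17.95 and 18.28 in VD. Of 8 fibroblast markers 5 were negative, with Dcn, the brightest, at -0.18 (SE 0.09), Pdgfra at -0.08 (SE 0.06), and a summed level of 16.17, 16.35 and 16.72 in CSD and 16.41, 16.50 and 16.73 in VD. Over deviations from the delivery mode means, Cyr61 had r = 0.04 with smooth muscle (permutation p = 0.901). That r was 0.59 within CSD and -0.35 within VD. With fibroblasts r was -0.28 (permutation p = 0.306), and -0.36 within CSD and -0.25 within VD. For Amotl2 and smooth muscle r was -0.49 (permutation p = 0.0597, adjusted p = 0.2985), and -0.73 within CSD and -0.38 within VD. The rho of that relation was -0.53 (permutation p = 0.0437, adjusted p = 0.218). Ctgf had r = 0.11 with smooth muscle (permutation p = 0.722), but 0.47 within CSD and -0.56 within VD. With fibroblasts r was 0.21 (permutation p = 0.467), but 0.55 within CSD and -0.38 within VD. With endothelium r was 0.29 (permutation p = 0.330), and 0.44 within CSD and -0.04 within VD.

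The remaining marker lists also held 0 called genes. Of 6 mesothelial markers 5 were positive, with Upk1b at 0.06 (SE 0.08) and Lrrn4, well above background on 8 of 16 arrays, at 0.23 (SE 0.22). Upk3b was well above background on 11 arrays. The summed level, with medians of 16.68 in CSD and 16.86 in VD, is that of Krt19, a keratin also made by epithelium, and is no level of mesothelium. Of 8 enteric neuron and glia markers 5 were positive, with Sox10 at -0.16 (SE 0.08) and Uchl1, the brightest, at -0.22 (SE 0.13), and median sums of 11.42 and 11.48. The 3 markers of interstitial cells of Cajal had median sums of 15.17 and 15.11 that follow Ano1, and Etv1 was at 0.08 (SE 0.09). All 5 adipocyte markers were negative, with Lep at -0.08 (SE 0.04) and Cfd, the brightest, at -0.75 (SE 0.74), and their sum varied between 10.08 and 15.45 within CSD and between 12.71 and 15.52 within VD. Of 8 striated muscle markers 6 were negative, with Acta1, the brightest, at -0.23 (SE 0.09), Actn3, well above background on 13 arrays, at -0.10 (SE 0.06) and median sums of 12.78 and 12.92. The sums follow Acta1, and of the 8 markers 4 were well above background on every array and 1 on none. Ankrd1 had r = -0.04 with their mean (permutation p = 0.892), and 0.87 within CSD and -0.26 within VD. Since Ankrd1 was well above background on 0 of 8 CSD and 2 of 8 VD arrays, nothing is read from this relation. Of 6 exocrine pancreas markers 3 were not well above background on any array. Cpa1, well above background on 1 array, was at 0.08 (SE 0.09) and Ctrb1 at -0.05 (SE 0.06). The median sums were 14.50 and 14.57. In CSD pups Cela1 averaged 14.58 and the next brightest, Ctrb1, 7.10, so these sums follow Cela1 and are no level of pancreas.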

How the data were processed

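Colon RNA of 16 pups was measured on 1-colour Agilent arrays, and delivery mode, sex and mother were taken from the labels. The authors deposited each array's scanner output, with the mean and background intensity of 62976 spots, and a log2 table of 27036 genes. According to the methods and the submitters' processing notes, the authors produced it with limma 3.38 by correcting, log2 scaling and quantile normalizing the intensities, dropping the dimmest probes and taking gene averages.

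Here normexp (offset 50) was applied to the mean intensity in limma 3.58.1 (R 4.3.3), control and outlier spots were left out, log2 values were quantile normalized, and probes above the 5% quantile of their array on at least 4 arrays were averaged by gene name. Of the 10 members, 7 had 1 probe. The number of arrays (16) limits the precision, no member spot was saturated or marked as an outlier, and the share of spots well above background was 58.7% to 64.9%. The fit held delivery mode and sex fixed and took litters as random (duplicateCorrelation by mother, consensus correlation 0.015), with adjustment over 36711 genes. Sex, interaction and litter contrasts used limma too, and relations between genes used permutations of pups within delivery mode. Scripts were tested on simulated data, where the fit recovered the changed genes and their signs, but the litter correlation was estimated too low and the share of false calls was above the nominal level, also with no litter effect in the simulation, so the adjusted p-values of the delivery comparison, those of Cyr61 and Amotl2 included, may be too small. P-values measure the spread between pups, and those of a litter are not independent.

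The members and the gene lists were chosen with earlier results of these data known. Named genes were the 10 members, from each list the called genes or otherwise the 2 with the smallest p, and the 5 genes most like Cyr61, Ctgf and Yap1. One gene that this rule names is not reported here. Background correction, normalization, probe filter, probe choice, the deposited matrix, the model, the slides, and left-out pups and litters were varied. The titles' pup numbers 5 to 9 occur in both groups, and the correlation of same-numbered pups was -0.05 to 0.22, so they were not taken as pairs. Positions of probes come from the scanner files (mm9), and their exon or UTR place was not analysed here. Figures were drawn with matplotlib 3.10.9.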

Additional observations from a re-analysis of the deposited data

Results flagged for a closer look

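Of the 20 sets of 8 pups (10 genes in CSD and in VD), 2 held a pup far from the others by Dixon's test at the 95% level, where chance flags about 1 set in 20. For Nov, CSD pup 7 (male, mother 4) was at 13.24 on the log2 scale and the next CSD pup, number 2, at 12.22, a gap of 0.71 of the range of the group. For Wisp2, CSD pup 6 (male, mother 4) was at 7.39 and the next, pup 7, at 6.70, a gap of 0.54 of the range, but 4 of the 8 CSD arrays (those of the females) were not well above background, so the lower end of that range is not a measured level. Without CSD pup 7 the log2 fold change of Nov was 0.01, against 0.21 with all pups. The cause was not tested.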

How the results depend on the processing

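Over the 36 alternatives, Cyr61 and Amotl2 were lower in CSD in all 36 and were called in 20 and 25, with log2 fold changes of -1.02 to -0.45 and -0.35 to -0.28. Against 2 members called, 1 was called with the processed signal after quantile normalization (Amotl2), and 1 with the processed signal centred on the 75th percentile or the deposited matrix (Cyr61). There were 0 with litter means as samples, males only, slide 1 or slide 2 alone, and without the litter of mother 3, 4 or 5. In all of these fewer samples entered, as also without the litter of mother 6, and the part of sample number was not tested. Without the litter of mother 6 there were 3, the third being Ankrd1 (log2 fold change -0.33, adjusted p = 0.0151 in limma). Without that of mother 5 the Ankrd1 estimate was 0.10, and as most of its arrays were not well above background neither is a measured size. Leaving out 1 pup gave 0 to 2, with 0 without VD pup 4 or CSD pup 9, and Cyr61 was called in 8 and Amotl2 in 14 of these 16 fits. Ctgf was higher in CSD in all 36 and called in 0, and the sign of Amotl1 turned in 15, of Yap1 in 14, of Wisp2 in 8, of Wisp1 in 7, of Nov in 3 and of Ankrd1 in 1. The sex and CSD litter contrasts called 0 members under all 6 alternatives, and the VD litter contrast called 0 in place of 1 with probes well above background on at least 4 arrays, which removed Ankrd1. Over all genes, 460 calls became 243 with offset 16, 177 and 164 with the processed signals, 170 in the matrix, 992 without sex, 0 with litter means, males or slide 2, 11 with slide 1, and 212, 138, 189 and 2265 without the litter of mother 3, 4, 5 or 6, with 145 to 617 without 1 pup. The title number as a replicate block in place of the mother called 2 members and 697 genes, and 2 of the 5 shared numbers correlated best with their own. The cause was not tested.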
